A study of Homo sapiens with 8 samples.

Results

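The cell line 697 comes from a human pre-B leukaemia and is long established. In these cells, 1033 genomic regions held a peak of the coactivator OCAB, of its octamer-binding partner OCT2 and of the NuRD subunit MTA2. They are called triple regions here and were chosen by the presence of these 3 peaks, so neither that presence nor the heights of the 3 peaks is tested. Peaks from the 7 deposited lists were joined wherever they shared at least 1 bp. This gave 74123 merged regions, of which 1515 held OCAB, OCT2 and MTA2 together. The 482 regions that held a peak of every list were left out of that number, so the triple regions were 1.39% of all merged regions. The binding maps come from chromatin immunoprecipitation and sequencing (ChIP-seq) with antibodies against OCAB, OCT2, MTA2, IKAROS, AIOLOS, HDAC2 and Mi2, and from an input library without antibody. Each antibody had 1 library of the same line, with no treatment named, so nothing here has a replicate check. All intervals are 95% intervals over regions, which are not replicates, or cover counting error, and no p-value between proteins was computed.

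OCT2 is a POU-domain factor of B cells that binds the octamer element of immunoglobulin promoters and enhancers. OCAB does not find such sites by itself. It docks onto OCT1 or OCT2 already bound to an octamer and adds an activation surface, and in the mouse it is needed for germinal centre formation. MTA2 is a scaffold subunit of NuRD, a complex in which the deacetylases HDAC1 and HDAC2 and a Mi2 remodelling ATPase sit together. IKAROS and AIOLOS are zinc-finger factors of lymphocytes that are known to bring NuRD to DNA. The title of the series places MTA2 beside OCAB at the step at which a pre-B cell becomes an immature B cell.

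Regions that lack 1 of the 3 proteins serve for comparison. OCAB and OCT2 without MTA2 were found in 359 regions, OCAB and MTA2 without OCT2 in 779, and OCT2 and MTA2 without OCAB in 4455. The library depth ran from 10.9 M tags for HDAC2 to 23.4 M for IKAROS and was 17.6 M for OCAB, 18.3 M for OCT2 and 22.8 M for MTA2. The lists held 4440 OCAB, 8129 OCT2, 28760 MTA2, 53948 IKAROS, 38101 AIOLOS, 16125 HDAC2 and 10303 Mi2 peaks. The HDAC2 library was the shallowest and its list had the loosest limit, with p-values over input of up to 9.5e-05. The highest p-value of any other list was 8.92e-10.

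The triple regions were mostly places where IKAROS and AIOLOS were also found. IKAROS was present in 978 of the 1033 (94.7%), against 72.8% of all merged regions, and AIOLOS in 935 (90.5%), against 51.4%. HDAC2 was present in 706 (68.3%), against 21.8%, and Mi2 in 75 (7.26%), against 13.9%. The figure for all merged regions includes regions that entered through the protein's own list, and the Mi2 figure is set by the rule, since a triple region with Mi2 could not also hold HDAC2, IKAROS and AIOLOS. With the regions of all 7 lists put back, Mi2 was present in 36.8% (34.4 to 39.2), so that its direction against 13.9% turned round. The commonest make-up, 644 regions (62.3%), was IKAROS with AIOLOS and HDAC2. A further 224 (21.7%) held IKAROS and AIOLOS without a second NuRD subunit, and 46 (4.45%) held IKAROS, AIOLOS and Mi2. Neither IKAROS nor AIOLOS was found in 34 triple regions, and 15 of these held HDAC2. In 19 regions OCAB, OCT2 and MTA2 stood alone.

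Peak height is the authors' tag number scaled to a library of 10 M tags, and for each region the highest peak of a list was taken. OCAB height in triple regions ran from 6.84 to 355, with a median of 18.2 and a middle range of 13.1 to 31.9. OCT2 height ran from 6.55 to 570.1 with a median of 19.1, and MTA2 height from 6.13 to 549.1 with a median of 26.7. The lowest triple region had 12 OCAB tags and the median one 32, so counting error alone is wide for the low peaks. Within its own list the median OCAB peak of a triple region lay at percentile 60.5 by height, the median OCT2 peak at percentile 71.2 and the median MTA2 peak at percentile 79.9. Of the triple regions, 35.04% had an OCAB peak in the highest 25% of the OCAB list, 45.5% an OCT2 peak in the highest 25% of the OCT2 list and 57.1% an MTA2 peak in the highest 25% of the MTA2 list. All 3 peaks were that high in 119 regions (11.5%), and none of the 3 was in 208 (20.1%).

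**Figure D1:**
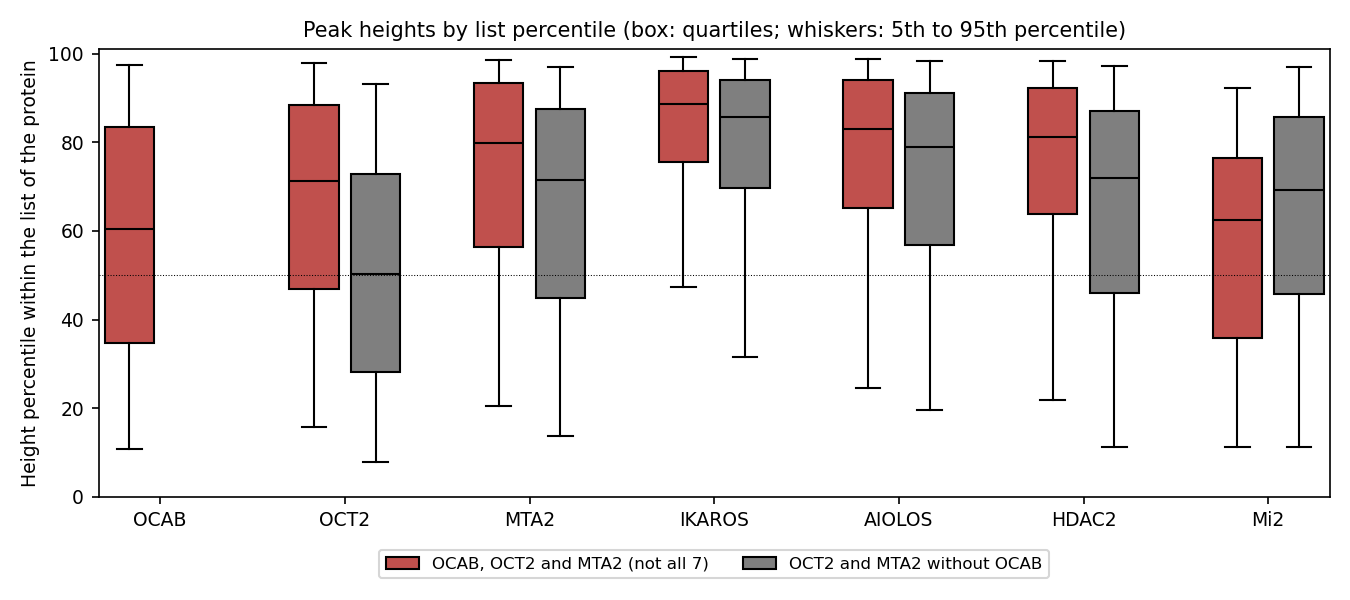
Height percentile within each protein's own list for the peaks in triple regions (red) and in regions with OCT2 and MTA2 but no OCAB (grey); boxes span the quartiles with the median as a line, and whiskers run over the 5th to 95th percentile. The median IKAROS peak lies at percentile 88.7 in triple regions and at percentile 85.8 in the other class.

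The OCAB peak was lower in triple regions than where OCAB and OCT2 lay without MTA2, while the OCT2 peak was higher. The median OCAB height was 18.2 (17.7 to 19.4) in triple regions, against 27.9 (25.1 to 31.9) in regions with OCAB and OCT2 but no MTA2. The median OCT2 height was 19.1 (18.0 to 20.2), against 13.1 (12.5 to 13.6) in those same regions. Beside OCAB and MTA2 without OCT2 the order for OCAB was the other way round, with 18.2 in triple regions and 13.7 (13.1 to 14.2) without OCT2. MTA2 stood at 26.7 (25.4 to 28.0) in triple regions, at 19.7 (18.8 to 20.6) without OCT2 and at 22.3 (21.9 to 22.8) without OCAB. The regions of all 7 lists, which were left out, had an OCAB median of 16.5, an OCT2 median of 22.4 and an MTA2 median of 40.5.

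Among triple regions, MTA2 height followed OCT2 height and not OCAB height. Spearman's rho was 0.56 for OCT2 with MTA2 and -0.05 for OCAB with MTA2 over the same 1033 regions, and 0.32 for OCAB with OCT2. OCT2 also ranked with IKAROS (rho 0.53, 978 regions), AIOLOS (0.49, 935 regions) and HDAC2 (0.55, 706 regions). For OCAB those values were -0.02, -0.002 and 0.10. MTA2 ranked most closely with IKAROS (0.77), HDAC2 (0.74) and AIOLOS (0.73). These relations are across regions that share the same libraries, and they are descriptions. Where OCT2 was absent, OCAB with MTA2 gave a rho of 0.07 over 779 regions, and where OCAB was absent, OCT2 with MTA2 gave 0.56 over 4455 regions.

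**Figure D2:**
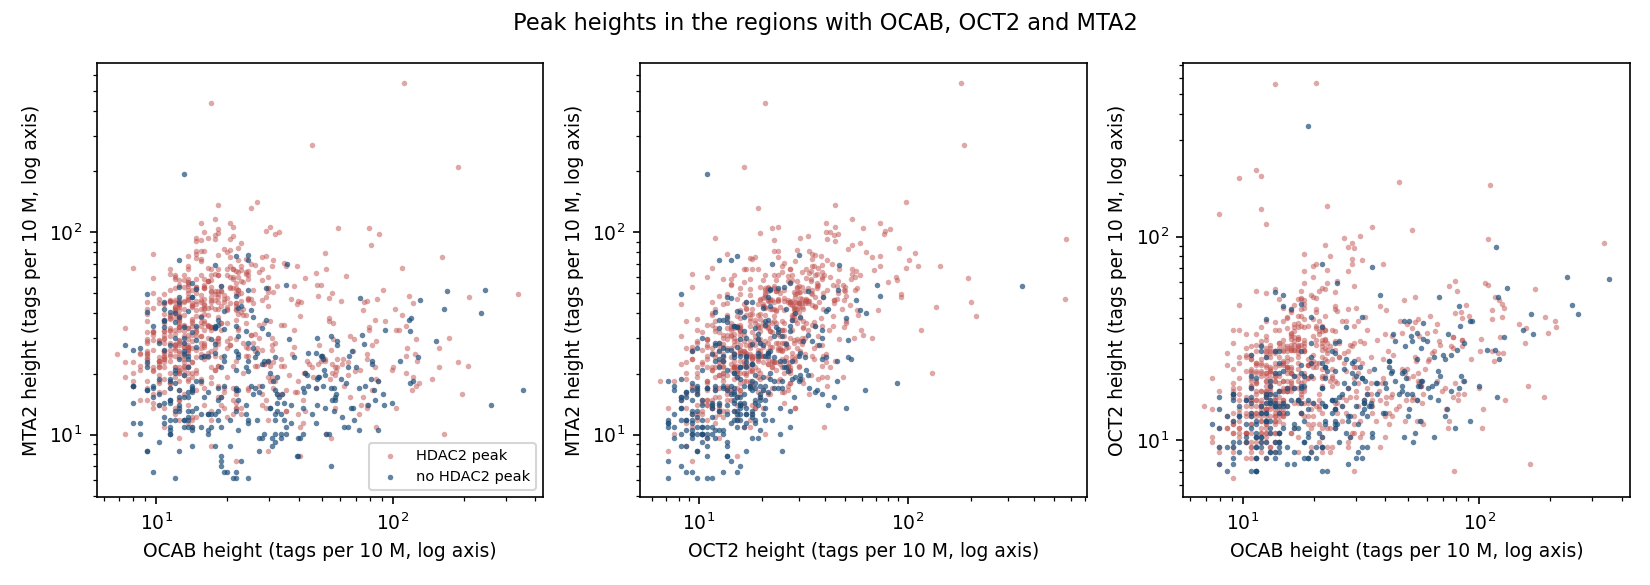
Heights in tags per 10 M of OCAB and MTA2 (left), OCT2 and MTA2 (middle) and OCAB and OCT2 (right) in the 1033 triple regions, on log axes; each point is a region, red with and blue without an HDAC2 peak. The cloud rises from left to right for OCT2 with MTA2 (rho 0.56) and does not for OCAB with MTA2 (rho -0.05).

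MTA2 rank was set beside the rank of each of the other 2 proteins. Of the 362 triple regions with OCAB in the highest 25% of its list, 161 (44.5%) had MTA2 in the highest 25% of the MTA2 list, and 92 (25.4%) had it in the lower 50%. For the 470 triple regions with OCT2 in the highest 25% of its list, those numbers were 364 (77.4%) and 22 (4.68%). Among triple regions without Mi2, the 240 with the highest OCAB peaks (31.9 to 355) had a median MTA2 height of 21.7 (20.1 to 23.2). The 239 with the lowest OCAB peaks (6.84 to 13.1) had 25.4 (23.6 to 27.6), and MTA2 was highest in the 2 steps between them, at 33.95 (30.2 to 36.3) and 31.5 (27.6 to 36.8). All 4 medians lay above the 16.2 of the whole MTA2 list. By contrast, the 240 with the highest OCT2 peaks had a median MTA2 height of 46.0 (42.9 to 48.6), and the 239 with the lowest OCT2 peaks had 17.1 (15.3 to 18.4).

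Single regions varied widely. The highest OCAB peak of the whole list lay in the triple region chr19:44123888-44124298 (hg19). There OCAB height was 355 (counting interval 328 to 384), OCT2 height 62.2 (51.3 to 74.7) and MTA2 height 16.6, and IKAROS and AIOLOS stood at 38.9 and 46.1 without HDAC2. At chr1:233275907-233276229 OCAB height was 261 and OCT2 height 41.5, while MTA2 height was 14.0 and IKAROS height 12.8, with AIOLOS and HDAC2 absent. By height within its own list, OCAB lay at percentiles 100 and 99.9 in these 2 regions and OCT2 at 98.5 and 95.5. MTA2 lay at percentiles 52.8 and 40.2. The region chr17:62009431-62009914 was high for all 3, with heights of 337.3 for OCAB, 92.7 for OCT2 and 49.5 for MTA2 and an HDAC2 height of 44.9. At chr6:33679530-33679934 OCAB height was 245.6, OCT2 height 46.4 and MTA2 height 51.7. At chr11:128480779-128481114 OCAB height was 235.3, OCT2 height 63.3 and MTA2 height 39.8. Both held IKAROS and AIOLOS and no HDAC2, so 1 of the 5 triple regions with the highest OCAB peaks held HDAC2. Over all triple regions HDAC2 was present in 68.3%, and these 5 regions do not stand for tall OCAB peaks in general.

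The 5 highest OCT2 peaks of triple regions had OCAB heights of 11.4 to 20.5 beside them, where the median of all triple regions was 18.2. At chr1:155214465-155214784 OCT2 height was 570.1 (537 to 607), while OCAB height was 20.5 (14.4 to 28.4) and MTA2 height 92.8. At chr15:44580550-44581079 OCT2 height was 560.3, OCAB height 13.7 and MTA2 height 46.9. The other 3 had OCT2 heights of 350.2 at chr1:180992064-180992410, 211.7 at chr9:93862295-93862656 and 199.1 at chr3:138328219-138328594, with OCAB heights of 18.8, 11.4 and 12.0. In all 5, IKAROS and AIOLOS were present, and the MTA2 peak lay in the highest 25% of its list, while no OCAB peak did. IKAROS and AIOLOS were both present in 88.5% of all triple regions. HDAC2 was present in 4 of the 5, beside 68.3% of all triple regions, and the exception, at chr1:180992064-180992410, held Mi2. These 5 regions do not stand for tall OCT2 peaks in general. Among triple regions without Mi2, the 240 with the highest OCT2 peaks had a median OCAB height of 23.1 (21.7 to 27.3). The 239 with the lowest OCT2 peaks had 13.7 (13.1 to 14.8).

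The triple region with the best mean of the 3 height ranks was chr11:62608995-62609365. It held heights of 111.1 for OCAB, 178.9 for OCT2, 549.1 for MTA2, 2160.7 for IKAROS, 2170.7 for AIOLOS and 98.9 for HDAC2. The input was high there too, so that OCAB stood 6.38-fold over input, OCT2 5.07-fold and HDAC2 4.12-fold, beside 62.04-fold for IKAROS. At chr22:23922592-23923039 the heights were 45.6 for OCAB, 184.9 for OCT2, 269.7 for MTA2 and 93.4 for HDAC2, with OCT2 65.5-fold and MTA2 115-fold over input. At chr5:403110-403463 OCAB height was 87.7, OCT2 height 46.4 and MTA2 height 98.1, and OCAB stood 62.15-fold over input. The region chr14:93143534-93143907 had heights of 79.2 for OCAB, 60.6 for OCT2 and 105.5 for MTA2. Of the 10 triple regions with the best mean rank, all held IKAROS and HDAC2, 9 held AIOLOS and 1, chr17:47326305-47326934, held Mi2 (height 30.3). Over all triple regions the shares were 94.7% for IKAROS, 68.3% for HDAC2 and 90.5% for AIOLOS, so for IKAROS and AIOLOS these counts are close to those of triple regions at large.

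Some of the strongest MTA2 peaks had no IKAROS peak beside them. At chr17:16284119-16284546 MTA2 height was 438.3, 310.76-fold over input, with OCAB at 17.1, OCT2 at 20.7 and HDAC2 at 22.9, and neither IKAROS nor AIOLOS had a peak. At chr19:46087787-46088351 MTA2 height was 210.2 and OCAB height 188.6, with OCT2 at 16.4, AIOLOS at 32.4 and no IKAROS. At chr16:28833616-28834243 MTA2 height was 193.5, with OCAB at 13.1, OCT2 at 10.9 and AIOLOS at 29.9. These are single regions and not the rule for tall MTA2 peaks. Among triple regions without Mi2, IKAROS was present in 534 of 553 (96.6%) with MTA2 in the highest 25% of its list, and in 57 of 66 (86.4%) with MTA2 in the lowest 25%.

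The 19 triple regions with none of the other 4 proteins had a median OCAB height of 18.8 (range 10.8 to 75.8), a median OCT2 height of 14.2 (7.64 to 26.2) and a median MTA2 height of 14.9 (7.44 to 47.3). OCAB was thus at about the level of the other triple regions, while OCT2 and MTA2 were lower. The best ranked were chr17:73775739-73776108, with heights of 72.9 for OCAB, 14.2 for OCT2 and 47.3 for MTA2, and chr20:32273061-32273438, with 75.8, 26.2 and 28.0. At chr1:180157813-180158172 the heights were 10.8 for OCAB, 26.2 for OCT2 and 41.6 for MTA2.

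The next comparison asked whether the other proteins were found more often where OCAB, OCT2 and MTA2 lay together than where 1 of them was missing. Regions of all 7 lists were left out of the triple regions alone, so shares were compared over regions without Mi2 in every class, to which that exclusion does not apply. On this footing 958 triple regions remained. IKAROS was present in 95.4% of them (93.9 to 96.6), in 55.7% of regions with OCAB and OCT2 but no MTA2 (50.3 to 61.0), in 85.6% of those without OCT2 (82.7 to 88.1) and in 89.1% of those without OCAB (88.0 to 90.2). AIOLOS was present in 92.2% of triple regions (90.3 to 93.7), and in 41.6% without MTA2, 81.2% without OCT2 and 83.6% without OCAB. Over all regions that held at least 1 of the 3 proteins and no Mi2, the shares were 69.6% for IKAROS and 62.0% for AIOLOS.

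HDAC2 showed the widest steps between the classes. It was present in 71.4% of triple regions without Mi2 (68.5 to 74.2), in 16.9% of regions with OCAB and OCT2 but no MTA2 (13.2 to 21.3), in 40.6% without OCT2 (36.8 to 44.5) and in 61.3% without OCAB (59.6 to 63.0). The share over all regions with at least 1 of the 3 and no Mi2 was 29.0%. The HDAC2 share of triple regions depended on the limits, and was 52.3% (49.1 to 55.5) with p-values over input of at most 1e-10. The differences were 54.5 points from regions without MTA2 (49.2 to 59.1), 30.8 points from those without OCT2 (25.9 to 35.5) and 10.1 points from those without OCAB (6.73 to 13.4). Mi2, counted over regions without HDAC2, was present in 16.2% of triple regions (12.6 to 20.6), 5.15% without MTA2, 11.1% without OCT2 and 15.2% without OCAB (13.5 to 17.2). The background over regions with at least 1 of the 3 and no HDAC2 was 7.25%. The Mi2 difference between triple regions and those without OCAB was 0.971 points, with an interval of -3.11 to 5.69. Over all regions of both classes, HDAC2 was present in 68.3% of triple regions and 67.3% of regions without OCAB, a difference of 1.05 points (-2.15 to 4.14) that carries the one-sided exclusion. With the regions of all 7 lists put back and all regions of each class counted, the Mi2 share was 8.37 points higher than without OCAB (5.63 to 11.2) and 18.0 points higher than without OCT2 (14.3 to 21.6).

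**Figure D3:**
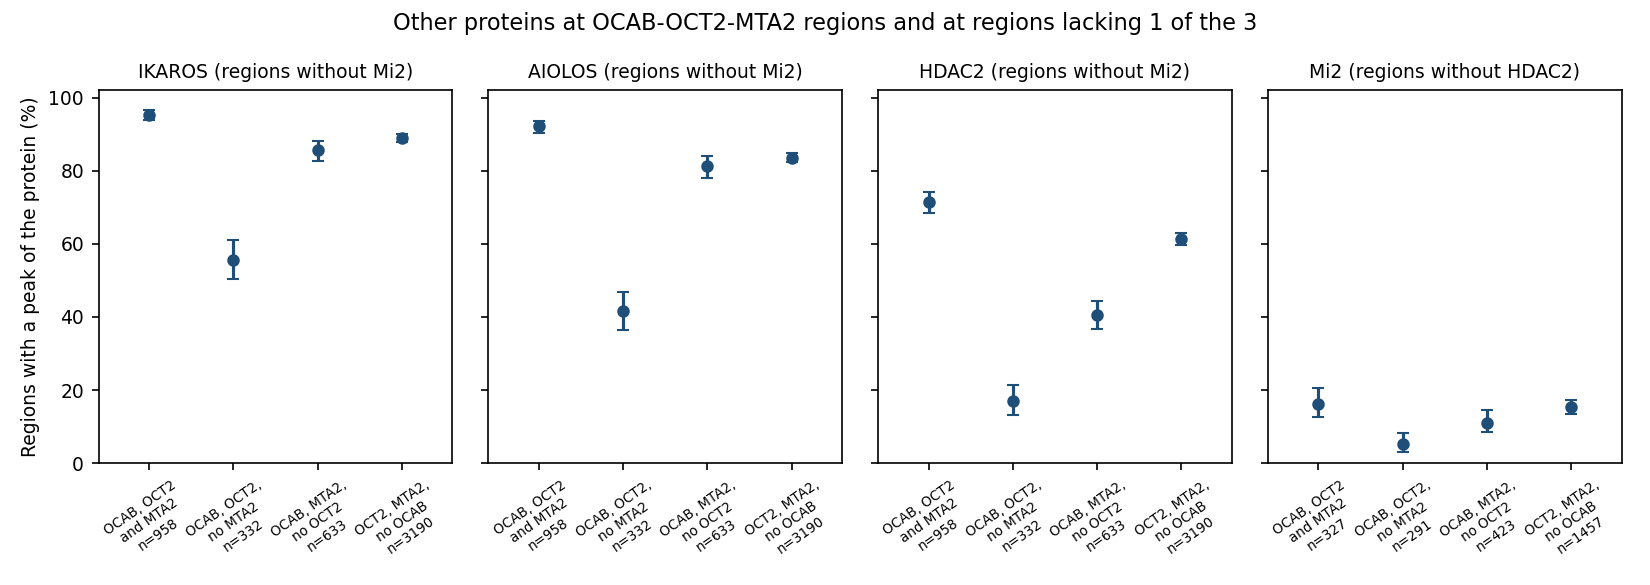
Share of regions with a peak of IKAROS, AIOLOS and HDAC2 (regions without Mi2) and of Mi2 (regions without HDAC2), for triple regions at the left of each panel and for the 3 classes that lack MTA2, OCT2 or OCAB; bars are 95% Wilson intervals over regions. HDAC2 is present in 71.4% of triple regions and in 16.9%, 40.6% and 61.3% of the other classes.

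HDAC2 was also more frequent at taller OCT2 and MTA2 peaks, so the shares were set side by side at like heights. Within the lowest 25% of the OCT2 list by height, HDAC2 was present in 48.0% of 100 triple regions and 45.5% of 760 regions with OCT2 and MTA2 but no OCAB. In the following 25% steps the shares were 65.2% of 155 and 60.5% of 884, then 67.6% of 262 and 66.7% of 874. In the highest 25% they were 81.2% of 441 (77.3 to 84.6) and 73.1% of 672 (69.6 to 76.3). The 4 differences, each counted alike, averaged 4.02 points (0.177 to 7.86). They averaged 4.62 points for IKAROS (2.30 to 6.94) and 6.44 for AIOLOS (3.71 to 9.18), and both were widest among the highest OCT2 peaks, with 98.2% of triple regions and 89.9% without OCAB for IKAROS.

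At like MTA2 height, a comparison added after the data were seen, the HDAC2 shares of triple regions and regions without OCAB differed by 0.330 points on average (-3.70 to 4.36). Each step counts alike in this average and the next ones, although the steps held unlike numbers of triple regions. At the lowest MTA2 peaks the shares were 19.7% of 66 triple regions and 25.3% of 442 regions without OCAB. At the highest they were 84.4% of 553 and 77.3% of 1266. From the lowest to the highest step the differences were -5.64 (-14.5 to 6.14), -3.18 (-12.6 to 6.53), 3.03 (-4.11 to 9.65) and 7.12 points (3.18 to 10.8). IKAROS and AIOLOS remained more frequent in triple regions at like MTA2 height, by 7.25 points (4.41 to 10.1) and 9.0 points (5.49 to 12.5) on average. For IKAROS the gap was 14.9 points at the lowest MTA2 peaks (3.82 to 22.5) and 0.988 at the highest (-1.13 to 2.76). For AIOLOS it was 20.6 points at the lowest (8.12 to 30.5) and 1.19 at the highest (-1.14 to 3.17). Set beside regions with OCAB and MTA2 but no OCT2, HDAC2 was more frequent in triple regions in each 25% step of OCAB height. The differences there ran from 27.1 points (17.9 to 35.8) to 43.0 points (32.9 to 51.8), and at like MTA2 height they averaged 16.6 points (11.5 to 21.8). That average joins unlike steps. From the lowest to the highest MTA2 peaks the differences were 3.66 points (-7.63 to 16.2), 5.66 points (-6.33 to 17.5), 27.8 points (18.4 to 36.6) and 29.5 points (21.9 to 37.1).

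Inside the triple regions, the presence of HDAC2 went with MTA2 height most steeply. Among those without Mi2, HDAC2 was found in 38.9% of the 239 with the lowest MTA2 peaks (33.0 to 45.2) and in 92.1% of the 240 with the highest (88.0 to 94.9). By OCT2 height the shares were 57.7% (51.4 to 63.8) and 84.6% (79.5 to 88.6). By OCAB height they were 74.5% (68.6 to 79.6), 79.2% (73.6 to 83.8), 71.1% (65.1 to 76.5) and 60.8% (54.5 to 66.8) from the lowest to the highest peaks, so that only the highest step stood below the rest. Medians with and without HDAC2 were also compared. MTA2 height was 31.75 (29.8 to 34.2) in the 684 triple regions with HDAC2 and 17.1 (16.2 to 18.4) in the 274 without it. OCT2 height was 21.3 (20.2 to 22.4) with HDAC2 and 15.8 (14.7 to 16.9) without. OCAB height was 17.7 (16.5 to 18.2) with HDAC2 and 22.2 (19.4 to 24.5) without.

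**Figure D4:**
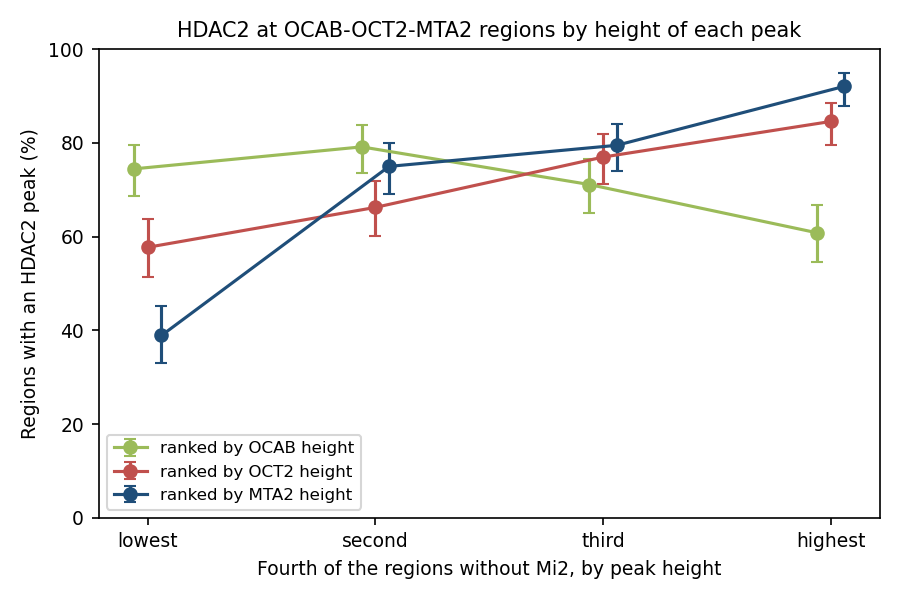
Share of triple regions without Mi2 that hold an HDAC2 peak, with the regions ranked into 4 equal steps by OCAB (green), OCT2 (red) or MTA2 (blue) height; bars are 95% Wilson intervals. From the lowest to the highest step the share goes up with MTA2 height (38.9% to 92.1%) and, of the 4 OCAB steps, the highest has the lowest share (60.8%).

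With the full lists, the median IKAROS, AIOLOS and HDAC2 peaks were taller in triple regions than in each class that lacked 1 of the 3 proteins. For IKAROS and AIOLOS this direction was not kept with shorter lists against regions without OCT2 or without OCAB. The median IKAROS height was 67.6 (62.4 to 72.3) in triple regions, against 24.6 (20.5 to 29.5) without MTA2, 42.8 (39.8 to 44.9) without OCT2 and 58.2 (56.5 to 59.4) without OCAB. AIOLOS height was 52.3 (48.6 to 56.0) in triple regions, against 23.7, 38.6 and 45.4 (44.2 to 47.3) in those classes. HDAC2 height was 21.1 (20.2 to 22), against 14.7, 15.6 and 18.3 (17.4 to 18.3). Over regions without Mi2 alone, a set added after the data were seen, the IKAROS median in triple regions was 1.30 times that without OCAB. Mi2 height, with 75 triple regions, was 16.2 (14.6 to 17.3), against 16.2 without OCT2 and 17.3 (16.7 to 17.3) without OCAB. When each list was cut to its 2000 highest peaks, the IKAROS median in triple regions was 0.969 times that without OCAB (0.800 to 1.12), against 1.16 times with the full lists. Against regions without OCT2 it was 0.842 times (0.680 to 1.22), where the full lists gave 1.58 times. The AIOLOS median was then 0.881 times that without OCT2 (0.662 to 1.22) and 0.935 times that without OCAB (0.809 to 1.13). Each of these intervals includes 1, so no reversed direction is shown. Against regions without MTA2 the ratio stayed above 1 in the cut lists, at 1.23 for IKAROS (1.002 to 1.44) and 1.23 for AIOLOS (1.05 to 1.42). After the region with 2160.7 given above, the next highest IKAROS peaks stood at 1028.6 at chr11:122542259-122542671, where AIOLOS stood at 852.2, OCT2 at 98.2 and OCAB at 26.8, and 597 at chr11:64037413-64037775, where OCAB stood at 35.9 and Mi2 at 18.4.

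Since the regions were chosen by overlapping peaks that were 250 to 274 bp wide, short distances between the 3 centres are largely set by the rule, and the values are a description. In 940 triple regions (91.0%) the OCAB, OCT2 and MTA2 peaks all overlapped one another, and the 3 centres fell within a median span of 86 bp, within 100 bp in 589 regions (57.02%). OCAB and OCT2 centres lay a median of 44 bp apart (40 to 48), OCT2 and MTA2 centres 49 bp (45 to 53) and OCAB and MTA2 centres 63 bp (59 to 69). Of the 1009 regions with 3 distinct centres, the OCT2 centre lay between the other 2 in 423 (41.9%), the OCAB centre in 301 (29.8%) and the MTA2 centre in 285 (28.2%). MTA2 was closest to IKAROS, at a median of 38 bp (35 to 43), while its distance to HDAC2 was 50 bp (44 to 57). The order was the same in other classes. These MTA2 distances were 39.5 bp (37 to 41) and 57.5 bp (55 to 60) without OCAB, and 42 bp (39 to 45) and 78.5 bp (70 to 91) without OCT2. Without MTA2, OCAB and OCT2 centres lay 42 bp apart (37 to 46), and without OCAB, OCT2 and MTA2 centres lay 47 bp apart (45 to 49). Both intervals overlap those of the triple regions. Between OCAB and MTA2 the distance was 63 bp in triple regions and 78 bp (72 to 85) where OCT2 was absent.

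**Figure D5:**
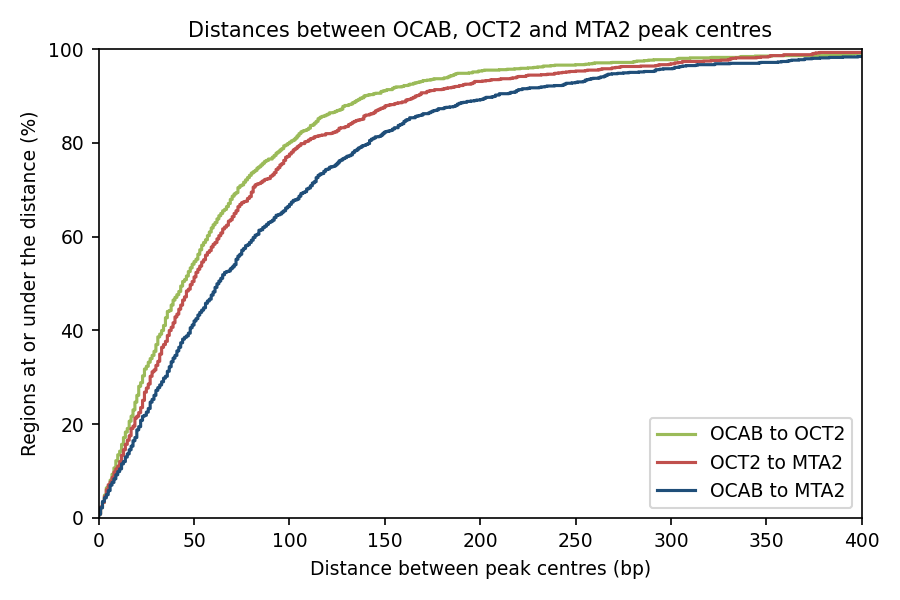
Share of the 1033 triple regions (vertical axis, percent) whose peak centres lie at or under a distance in bp (horizontal axis) for OCAB to OCT2 (green), OCT2 to MTA2 (red) and OCAB to MTA2 (blue). The blue line lies lowest, with a median of 63 bp, against 44 bp and 49 bp.

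Triple regions were spread over all 22 autosomes and the X chromosome. They made up 2.42% of the merged regions of chromosome 22 (43 of 1776, interval 1.80 to 3.25) and 0.434% of those of chromosome X (7 of 1613, 0.210 to 0.893), against 1.39% over the whole set. These chromosomes were singled out from 23 after the shares were seen. The median triple region lay 484958 bp from the next one, and 34 (3.29%) had another within 10000 bp, in 17 pairs and no longer run. Of the regions with OCT2 and MTA2 but no OCAB, 11.8% had another of their kind within 10000 bp, but that class was larger.

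Few triple regions hung on an overlap of 10 bp or less. The smallest overlap in the chain of joined peaks was at most 10 bp in 15 of them and at most 50 bp in 64, with a median of 204 bp over all 1033. The OCAB, OCT2 and MTA2 peaks all overlapped one another in 940, and the rest lacked at least 1 of these overlaps. The chains of chr2:233924413-233925129, chr7:98633406-98634279 and chrX:39942160-39942873 each held a link of 1 bp, with OCAB heights of 9.69, 12.5 and 27.3. In the chr2 region the OCAB, OCT2 and MTA2 peaks all overlapped one another, and it stayed a triple region when overlaps of at least 50 bp were required. The chr7 and chrX regions met neither condition. Just outside the limit of 1 bp, 8 places had OCAB, OCT2 and MTA2 peaks parted by gaps of no more than 10 bp. The nearest were chr19:51216115-51216777, where peaks adjoined without sharing a base (OCAB height 34.2, OCT2 height 18.0 and MTA2 height 25.8), chr10:43534708-43535391 with a gap of 2 bp (OCAB height 9.12) and chr7:90224392-90225245 with a gap of 3 bp (OCAB height 9.69).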

How the data were processed

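The deposited data are 7 peak lists from single ChIP libraries. CASAVA, Bowtie2, HOMER 4.9.1 and hg19 are named, without roles, per the submitters' processing notes; per the file headers, the HDAC2 list needed 4-fold over input. Heights are the signal column the authors deposited, tags per 10 M. The deposited tag numbers are counts in 5 lists, and a signal scaled to input depth in IKAROS and MTA2. The authors' ratio columns give fold over input. The deposited p-values over input serve as a limit in an alternative. The tag-concentration fraction and peak score the authors deposited were not used.

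From these, merged regions, shares (Wilson intervals), differences (Newcombe), medians (order-statistic intervals) and Poisson intervals of single heights were computed. Means over 4 height steps count each step alike, whatever its number of regions, and combine the intervals in quadrature. Code was tested on simulated peaks. Depth came from tags over height, or from height steps for IKAROS and MTA2. Input enters only through the authors' peak calling. The labels name no molecular identifier, so intervals cover counting only.

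Named regions are the best 10 by mean rank, the best 5 per protein, 5 without other proteins, and those at the limit; only some are described. Regions, classes and tests were chosen with earlier results of these data known. No genome sequence or annotation on hg19 was used here, so octamer letters, promoters and gene lists were not analysed here. Python 3.11.15, numpy 2.4.6, pandas 2.3.3, scipy 1.17.1 and matplotlib 3.10.9 were used.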

Additional observations from a re-analysis of the deposited data

How the results depend on the processing

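No paired analysis was possible because each antibody had 1 library. Triple regions numbered 664 at 8-fold or more over input, 208 with 2000 peaks per list and 589 with peak centres within 100 bp. The share of triple regions without Mi2 that held HDAC2 was 71.4% in the main setting. It was 52.3% (49.1 to 55.5) with p-values over input of at most 1e-10, 58.7% (54.8 to 62.5) at 8-fold and 77.1% (70.4 to 82.6) with 2000 peaks per list. With p-values over input of at most 1e-10, the HDAC2 difference in points was 45.5 from regions without MTA2, 36.1 from those without OCT2 and 14.2 from those without OCAB. At 8-fold it was 13.8 from those without OCAB; for IKAROS it was 14.0 from those without OCT2 and 8.32 from those without OCAB, for AIOLOS 10.8 from those without OCAB, and averaged over OCT2 height steps 6.98 for IKAROS and 9.01 for HDAC2. With 2000 peaks per list the IKAROS differences were 53.4 from regions without MTA2 and 13.8 (-0.928 to 28.6) from those without OCT2, and those of HDAC2 60.1 and 36.7; the intervals of IKAROS from those without OCAB (7.77, -0.982 to 16.1) and of AIOLOS from those without OCT2 (9.28, -5.45 to 24.2) also included 0, and differences at like height could not be computed there. The same lists gave IKAROS height ratios of 0.969 to regions without OCAB and 0.842 to those without OCT2, AIOLOS ratios of 0.935 and 0.881, and an HDAC2 ratio of 1.03 without OCAB. The intervals of all these ratios included 1. With regions of all 7 lists put back, HDAC2 differed by 59.5 points from regions without MTA2 and the IKAROS height ratio to regions without OCAB was 1.37; over regions without Mi2, an alternative added after the data were seen, it was 1.30. Centre distances from OCAB to OCT2, OCT2 to MTA2 and OCAB to MTA2 were 34, 36 and 40 bp with 2000 peaks per list, and 30, 33 and 36 bp where centres had to lie within 100 bp, which shortens them by construction. OCT2 to MTA2 and OCAB to MTA2 were 43 and 58 bp at 8-fold, and 44.5 and 56 bp where all 3 peaks overlapped each other. The cause of the other changes was not tested. The main results, each repeated under the alternatives that applied to it, gave 127 checks. In 96 of them the value stayed within the original interval or 1.5 times the count. In 30 it moved beyond that, and in 1 the point value changed direction. Among checks of the other results, 191 stayed, 47 moved and 3 changed direction. The octamer alternatives were not run.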

Other observations

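Mi2, the remodelling ATPase of NuRD, lay farther from the OCAB, OCT2 and MTA2 peaks than HDAC2 did in triple regions, and the same order was seen in other classes. Its centre was a median of 126 bp from that of OCAB (90 to 155), 111 bp from that of OCT2 (83 to 140) and 86 bp from that of MTA2 (58 to 125), over 75 regions. For HDAC2 these distances were 71 bp (65 to 79), 57 bp (53 to 63) and 50 bp (44 to 57), over 706 regions. Without OCAB, Mi2 lay 104 bp from OCT2 and 97 bp from MTA2, and HDAC2 61 and 57.5 bp. In regions of all 7 lists, Mi2 lay 133, 122 and 113.5 bp from OCAB, OCT2 and MTA2, and HDAC2 72.5, 63.5 and 55 bp. Without OCT2 or without MTA2 the Mi2 medians were also larger, but the intervals overlapped those of HDAC2. The Mi2 peaks were 346 bp wide and the HDAC2 peaks 318 bp, and the part of width in these distances was not tested. Among triple regions without HDAC2, the 53 with Mi2 had a median MTA2 height of 17.5 (15.8 to 25.4) and the 274 without it 17.1 (16.2 to 18.4).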
